A study of Mus musculus with 24 samples.

Results

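The enzymes of glycolysis, gluconeogenesis and the citrate cycle were followed in the pancreas of obese mice given a berry beverage, its phenolic extract or an antidiabetic drug. The module was a list of 38 genes, and its members were the probes annotated with those symbols, current or older, that 4 or more of the 24 arrays detected (detection p under 0.05). Of the 38 genes, 35 had an annotated probe and 29 had a kept one, by 41 of their 65 probes, among 9164 genes named by the 15328 kept probes of the array. The kept members were 10 genes of glycolysis, 1 lactate dehydrogenase subunit, 3 genes of the pyruvate dehydrogenase complex, 11 of the citrate cycle and 4 of gluconeogenesis. Hk2, Gpi1 and Eno1 had no named probe and were not analysed here.

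All animals were male C57BL/6J mice bought at 3 weeks of age, housed singly and fed a high-fat diet (60% fat) for 12 weeks, water controls included. Total RNA of whole frozen pancreas was hybridised to Illumina bead arrays, 4 per group. The AFFB group drank an alcohol-free fermented blackberry and blueberry beverage that supplied 8.4 mg of anthocyanins per kg per day. The PAE 0.1X, PAE 1X and PAE 3X groups drank a phenolic extract of that beverage at 1.1, 9.0 and 18.9 mg of anthocyanins per kg per day. For the highest dose, titles read 3X while the protocol of the treatment reads 2X. The sitagliptin group received that inhibitor of dipeptidyl peptidase IV, an enzyme that degrades incretin hormones, at 150 mg/L in the water, and the control group drank water. The labels give 12 mice per treatment and do not state whether each array is a separate mouse, so p-values here cover the spread among these arrays, which may be technical.

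Glycolysis splits glucose to pyruvate in the cytosol, and pyruvate is reduced to lactate, carboxylated to oxaloacetate, or oxidised by pyruvate dehydrogenase to feed the citrate cycle in mitochondria. Gluconeogenesis runs most of glycolysis in reverse and bypasses its irreversible steps with pyruvate carboxylase, phosphoenolpyruvate carboxykinase, fructose bisphosphatase and glucose-6-phosphatase. In the pancreas, glucose metabolism in islet beta cells couples blood glucose to insulin release, while most of the tissue's RNA comes from acinar cells that make digestive enzymes. Markers of acinar cells were high throughout, with a mean log2 signal over 9 of 9 genes between 13.1 and 13.4 on every array, while the mean of 8 islet markers varied between 5.94 and 8.64 among arrays. In whole tissue, fewer cells of a type and less RNA per cell cannot be told apart.

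Median signal per array was 81.3 to 98.7, 10888 to 14060 probes were detected per array, and 3 arrays stood apart on the component that held 28.4% of the variance. Their scores were 38.8 (AFFB replicate 2), 56.1 (PAE 1X replicate 2) and 33.7 (sitagliptin replicate 3), against at most 19.0 elsewhere. The planned rule, a cut at the largest gap in scores, marked only PAE 1X replicate 2, and the set of 3 was chosen after seeing the data. Where leaving out these 3 arrays moved a printed difference of a member by over 1.5 times, this is shown beside it. Either the value without them or the readings of the arrays apart are given. Values are log2 signals after background correction and quantile normalization with an offset of 16, which compresses differences of dim probes. Errors of group means are SDs over 4 arrays, and errors of differences are standard errors (SE) of a limma fit to all 24 arrays. The threshold was an adjusted p under 0.05, by Benjamini and Hochberg's method over all kept probes.

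Fbp2, the muscle isozyme of fructose bisphosphatase, was higher in PAE 3X pancreas than in water pancreas, and it was the only member that passed in any comparison. Fructose bisphosphatase removes a phosphate from fructose bisphosphate and so opposes phosphofructokinase. Its liver isozyme is Fbp1, whose gene neighbours Fbp2 on mouse chromosome 13. The promoters of both genes are shown because of their rank among the members. One or other isozyme had the smallest p in every comparison with water but that of PAE 0.1X. For Fbp1 that p is not free of the filter, since 3 of its 4 detected arrays were water arrays and 4 was the minimum. The promoters cover 250 bases before to 50 after the annotated start, from RefSeq on GRCm38.p6. They lie at chr13:62858351-62858650 on the minus strand for Fbp2 and chr13:62888233-62888532 on the minus strand for Fbp1. Capitals mark an E-box (CACGTG) in Fbp2 and a GC box (GGGCGG) in Fbp1.

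Fbp2: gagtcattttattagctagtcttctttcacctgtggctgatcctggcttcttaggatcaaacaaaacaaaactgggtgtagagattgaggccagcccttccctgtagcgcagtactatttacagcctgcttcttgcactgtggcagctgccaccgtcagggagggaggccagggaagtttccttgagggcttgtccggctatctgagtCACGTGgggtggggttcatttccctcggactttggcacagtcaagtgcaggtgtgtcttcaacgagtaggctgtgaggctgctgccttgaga

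Fbp1: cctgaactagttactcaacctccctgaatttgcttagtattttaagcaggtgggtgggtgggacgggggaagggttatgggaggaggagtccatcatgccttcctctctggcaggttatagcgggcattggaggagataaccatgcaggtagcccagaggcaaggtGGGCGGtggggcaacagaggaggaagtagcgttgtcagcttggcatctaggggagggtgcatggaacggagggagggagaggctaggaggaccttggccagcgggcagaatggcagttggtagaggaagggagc

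Fbp2 had 6.58, 6.42, 6.83 and 6.58 on the 4 AFFB arrays, 6.60, 6.53, 6.84 and 6.42 on PAE 0.1X, 6.43, 6.72, 6.70 and 7.16 on PAE 1X, 6.85, 7.15, 6.76 and 7.48 on PAE 3X, 6.05, 6.28, 6.23 and 6.13 on sitagliptin, and 6.08, 6.40, 6.02 and 6.31 on water. The PAE 3X arrays lay above the water arrays with no overlap, and every one of the 16 arrays of the berry groups lay above all 8 arrays of the water and sitagliptin groups. The probe was detected on all 24 arrays. Means were 6.60 ± 0.17 in AFFB, 6.60 ± 0.18 at PAE 0.1X, 6.75 ± 0.30 at PAE 1X, 7.06 ± 0.32 at PAE 3X, 6.17 ± 0.10 in sitagliptin and 6.20 ± 0.18 in water (SD, n = 4 each).

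**Figure D1:**
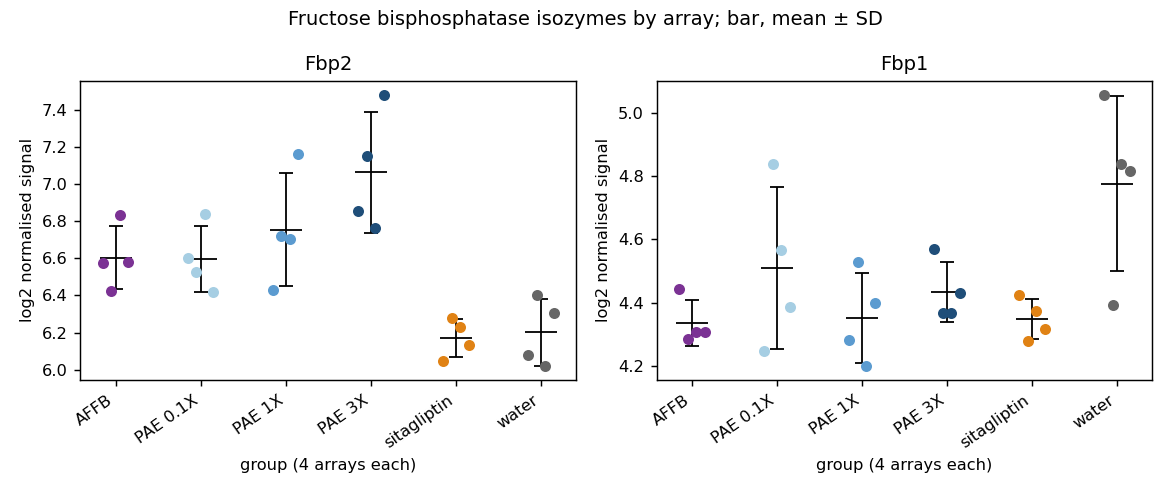
Log2 normalised signal of the fructose bisphosphatase isozymes Fbp2 (left) and Fbp1 (right) on each of the 4 arrays of the 6 groups; each point is an array, the long bar the mean and the whiskers the SD. The Fbp2 points of the 4 berry groups lie between 6.42 and 7.48 and those of sitagliptin and water between 6.02 and 6.40, while the Fbp1 points are near background outside water.

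In PAE 3X against water, the Fbp2 difference was 0.86 (SE 0.16), a 1.82-fold level, with a limma adjusted p = 0.0413. This was 1 of 41 member probes, where 0.0457% of all kept probes passed. The call depended on the settings: the adjusted p was 0.106 without the filter on dim probes, 0.164 with only the PAE 3X and water arrays in the fit and 0.0659 with the adipocyte marker mean as a covariate. Leaving out any of 12 of the 24 arrays also ended the call, with adjusted p between 0.0526 and 0.158: AFFB replicate 4, PAE 0.1X replicates 1 and 2, PAE 1X replicate 3, PAE 3X replicates 1, 2 and 4, sitagliptin replicate 4 and each of the 4 water arrays. The difference itself was 0.72 to 0.96 with any PAE 3X or water array left out. Leaving out an array of another group cannot change it. It was 1.14 with arrays scaled to a common median and 0.46 without background correction.

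In the other groups the Fbp2 difference from water did not pass the limma test. It was 0.40 (SE 0.16, adjusted p = 0.919) in AFFB, where 0% of kept probes passed, and 0.39 (SE 0.16, adjusted p = 1) in PAE 0.1X, where 0% passed. It was 0.55 (SE 0.16, adjusted p = 0.42) in PAE 1X, where 0.00652% passed, and -0.03 (SE 0.16, adjusted p = 1) in sitagliptin, where 0% passed. These 5 comparisons share the water arrays. No member passed with AFFB, PAE 0.1X, PAE 1X or sitagliptin. By their brightest probe, 2 of the 29 members had an unadjusted p under 0.05 in AFFB, against 5.03% of all kept probes. The count was 3 under PAE 0.1X (3.78%), 5 under PAE 1X (6.5%), 4 under PAE 3X (5.03%) and 2 in sitagliptin (2.74%). The 29 members include Fbp1, whose p against water is not free of the filter, so these counts are not free of it either.

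Over the dose series of water, PAE 0.1X, PAE 1X and PAE 3X, the Fbp2 means were 6.20, 6.60, 6.75 and 7.06, each above the one before it. Neighbouring doses of extract overlapped in their arrays. The linear trend was 0.27 per dose step (SE 0.05) with a limma adjusted p = 0.0236, again 1 of 41 member probes, where 0.157% of kept probes passed. With anthocyanin dose in mg per kg per day in place of steps, the slope was 0.04 per mg (SE 0.01) and the adjusted p 0.0645. The trend also lost its call without PAE 3X replicate 2 or 4 or any water array, with adjusted p between 0.0564 and 0.0895. Of the 29 members, 8 had an unadjusted p under 0.05 for the trend, against 6.88% of kept probes. With arrays scaled to a common median, 7 of the 29 members did, and so did 2895 of the 15328 kept probes. The members counted include Fbp1, whose p is not free of the filter here too, as the trend uses the water arrays. PAE 3X against PAE 0.1X, which does not use the water arrays, gave an Fbp2 difference of 0.47 (SE 0.16, limma adjusted p = 0.76). With arrays scaled to a common median it was 0.76 (limma adjusted p = 0.149), where the median over all kept probes itself was 0.16. With quantile normalization no member passed in this comparison, where 0% of kept probes did and 5.38% had an unadjusted p under 0.05.

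The beverage was also set against the extract at the nearest anthocyanin dose. For Fbp2, AFFB against PAE 1X gave -0.15 (SE 0.16, limma adjusted p = 1), -0.10 without the 3 arrays apart and -0.01 without PAE 1X replicate 4. It was -0.36 with arrays scaled to a common median, where the median over all kept probes itself was -0.13. With quantile normalization no member passed in that comparison, where 0.00652% of kept probes passed. In a moderated F test over all 5 treatments Fbp2 had an adjusted p of 0.0621, and no member passed, where 0.104% of kept probes did.

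Contrasts of the mean of the 4 berry groups were chosen after the values were seen. Fbp2 was 0.55 (SE 0.13) above water with a limma adjusted p = 0.262, and 0.58 (SE 0.13) above sitagliptin with a limma adjusted p = 0.147. No member passed in either, where 0.0326% and 0.0457% of kept probes passed. It was the only member whose 16 berry arrays did not overlap the water arrays, which 0.0979% of kept probes did not, and the only one whose 16 did not overlap the sitagliptin arrays, which 0.0326% did not.

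Because Fbp2 is the muscle isozyme, skeletal muscle markers were read beside it. Of 10 muscle markers with a probe, 9 were not kept, Ckm, Acta1, Myh4 and Mb among them, and the remaining one, Actn3, had group means between 4.55 and 4.66. Adipocyte markers (6 of 9 kept) averaged 4.67 in AFFB, 4.88 at PAE 0.1X, 4.85 at PAE 1X, 4.62 at PAE 3X, 4.83 in sitagliptin and 5.01 in water. Their array means ran between 4.42 and 5.09 in PAE 3X and between 4.42 and 6.02 in water, and Fabp4, Plin1 and Cidec were not kept. Erythroid markers (3 of 4 kept) averaged 6.95 in AFFB, 6.90 at PAE 0.1X, 6.93 at PAE 1X, 7.18 at PAE 3X, 6.64 in sitagliptin and 6.52 in water, with array means of 6.66 to 7.69 at PAE 3X and 6.33 to 6.78 in water. The part of the erythroid markers in the Fbp2 difference was not tested.

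Clock genes, whose level follows the hour of sampling, also varied among arrays, and 5 arrays had a clock score above 1.5. These were PAE 1X replicate 4, PAE 3X replicates 2 and 3, sitagliptin replicate 4 and water replicate 4. Without them the PAE 3X difference in Fbp2 was 1.00 (SE 0.20) with a limma adjusted p of 0.186, and with the clock score as a covariate it was 0.83 (SE 0.17) with an adjusted p of 0.0359.

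Fbp1, the liver isozyme, had its highest mean in water and lay near background. It was detected on none of the 16 arrays of AFFB, PAE 1X, PAE 3X and sitagliptin, on 1 PAE 0.1X array and on 3 of 4 water arrays. It thus just met the filter of 4 arrays, mainly through water, the group where it was highest. Its comparisons with water are therefore no independent support for a difference. Its values were 4.44, 4.28, 4.31 and 4.31 on the 4 AFFB arrays, 4.25, 4.84, 4.57 and 4.39 on PAE 0.1X, 4.28, 4.53, 4.2 and 4.40 on PAE 1X, 4.57, 4.37, 4.37 and 4.43 on PAE 3X, 4.43, 4.28, 4.37 and 4.32 on sitagliptin, and 5.06, 4.39, 4.84 and 4.82 on water. Water replicate 2 lay within the range of each of the other groups.

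Since undetected values give only a bound, Fbp1 was at least 1.06-fold lower in AFFB than in water, at least 1.09-fold lower at PAE 1X, at least 1.11-fold lower at PAE 3X and at least 1.07-fold lower in sitagliptin. These bounds set the water mean over all its arrays against the lowest signal among detected probes. None passed, with a limma adjusted p of 0.919 in AFFB, 0.531 under PAE 1X, 0.891 under PAE 3X and 1 in sitagliptin. In PAE 0.1X, with 1 of 4 arrays detected, the measured mean was 4.51, against 4.78 in water (limma adjusted p = 1). Liver markers (4 of 6 kept, without Alb and Tat) averaged 5.66 in AFFB, 5.74 at PAE 0.1X, 5.65 at PAE 1X, 5.84 at PAE 3X, 5.72 in sitagliptin and 6.16 in water, where water replicate 3 had the highest array mean, 6.86. The acinar, duct, adipocyte, macrophage and stellate lists had their highest group mean in water too, and the part of these lists in the Fbp1 values was not tested.

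The remaining genes of gluconeogenesis were low or undetected. Of the 4 kept genes of this pathway, Fbp1 and Fbp2 included, 2 had a higher mean than water in AFFB, 1 under PAE 0.1X, 3 under PAE 1X, 3 under PAE 3X and 2 in sitagliptin. Pck1, the cytosolic phosphoenolpyruvate carboxykinase that is abundant in liver and kidney, was not detected on any array by either of its probes, and neither was the mitochondrial Pck2. The brighter Pck1 probe had 4.47, 4.25, 4.26 and 4.23 on the 4 AFFB arrays, 4.41, 4.25, 4.26 and 4.28 on PAE 0.1X, 4.27, 4.25, 4.21 and 4.22 on PAE 1X, 4.28, 4.23, 4.34 and 4.42 on PAE 3X, 4.26, 4.21, 4.34 and 4.26 on sitagliptin, and 4.40, 4.25, 4.52 and 4.36 on water, with no group apart from the others. G6pc, the liver catalytic subunit of glucose-6-phosphatase, was detected on 12 arrays: 3 of AFFB, 0 of PAE 0.1X, 2 of PAE 1X, 4 of PAE 3X, 2 of sitagliptin and 1 of water. It had 4.56, 5.42, 5.02 and 4.83 on the 4 AFFB arrays, 4.52, 4.45, 4.58 and 4.70 on PAE 0.1X, 4.55, 4.87, 4.55 and 4.86 on PAE 1X, 4.82, 4.76, 4.72 and 4.81 on PAE 3X, 4.51, 4.90, 4.45 and 4.79 on sitagliptin, and 4.49, 4.33, 4.32 and 5.21 on water. AFFB replicate 2 was the highest of all. In PAE 3X it was at least 1.07-fold higher than in PAE 0.1X, with arrays that did not overlap and a limma adjusted p = 0.988.

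Pcx, pyruvate carboxylase, which supplies oxaloacetate and is active in beta cells, had its highest mean in sitagliptin. It had 4.72, 4.94, 5.31 and 4.50 on the 4 AFFB arrays, 4.62, 5.35, 4.70 and 4.98 on PAE 0.1X, 5.51, 5.29, 5.06 and 5.14 on PAE 1X, 4.91, 5.19, 5.29 and 5.19 on PAE 3X, 5.05, 5.42, 5.81 and 5.45 on sitagliptin, and 5.03, 5.08, 4.73 and 5.07 on water. The sitagliptin and water arrays overlapped, and the difference was 0.46 (SE 0.18, limma adjusted p = 1), or 0.33 without the 3 arrays apart. In AFFB it stood at -0.38 (SE 0.18, limma adjusted p = 1) relative to PAE 1X, the smallest p of a member in that comparison.

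In glycolysis, no member passed, and most members had lower means than water in every berry group. Of 10 genes, 9 had a lower mean in AFFB (median difference -0.14), 6 at PAE 0.1X (-0.10), 8 at PAE 1X (-0.15), 9 at PAE 3X (-0.16) and 3 in sitagliptin (0.03), where the median over all kept probes was within 0.02 of 0. The direction depended on the scaling. With arrays scaled to a common median in place of quantile normalization, the median over all kept probes itself moved to 0.13 at PAE 1X and 0.16 at PAE 3X, and the glycolysis medians became -0.07 in AFFB, -0.07 at PAE 0.1X, 0.14 at PAE 1X, 0.13 at PAE 3X and 0.14 in sitagliptin. These counts of directions share the same water arrays and carry no test.

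**Figure D2:**
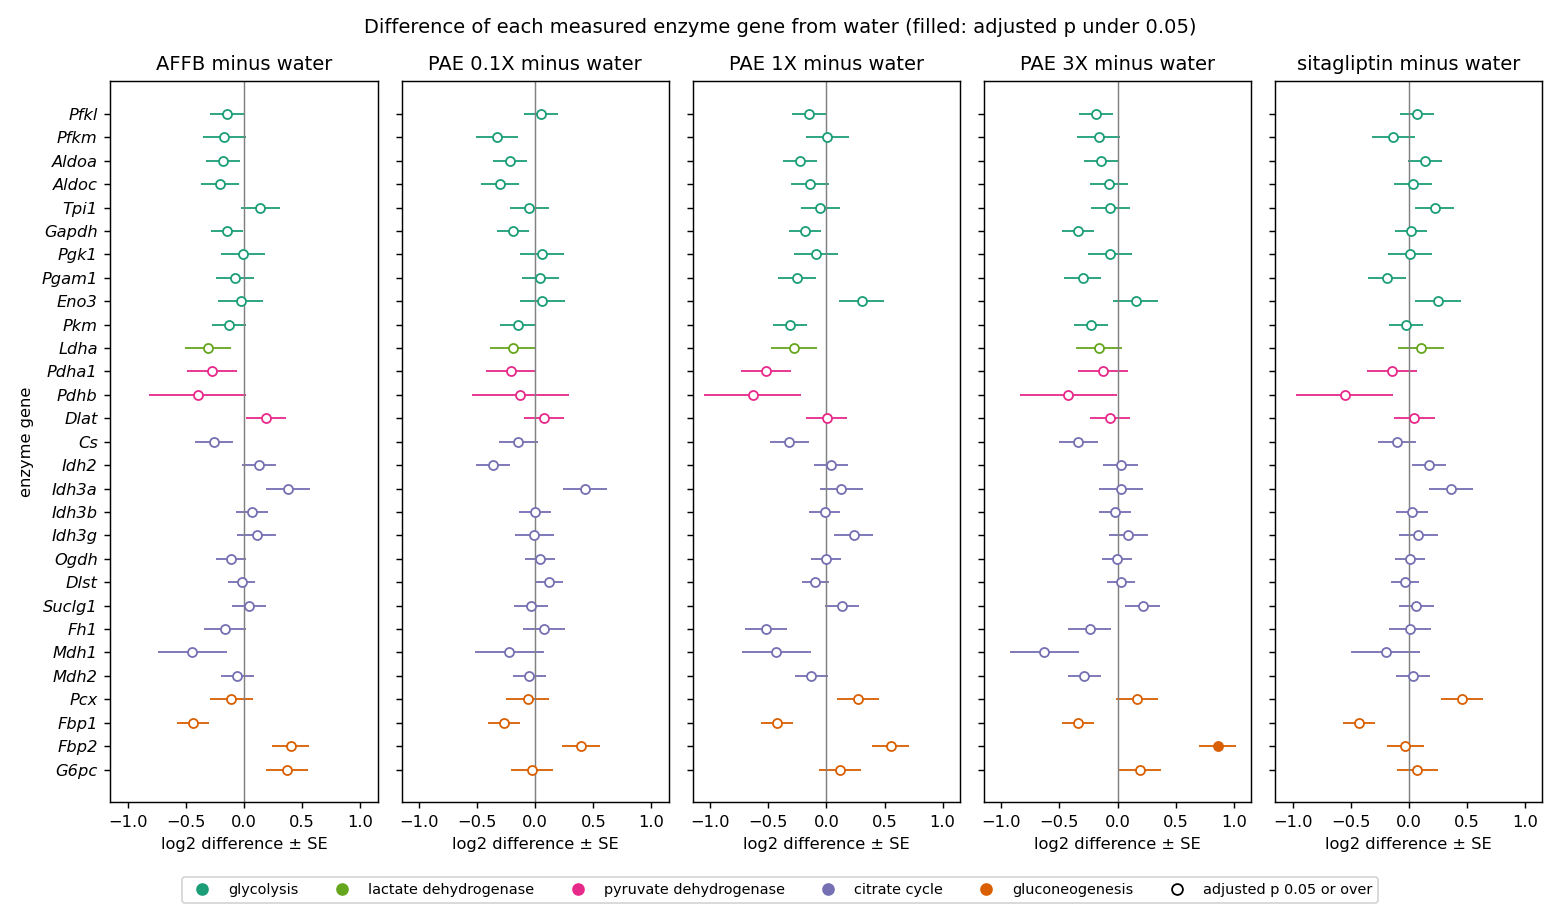
Difference in log2 signal of each of the 29 members from water, with its SE, in the 5 treated groups; rows are genes grouped and coloured by role, each by its brightest probe, and a filled point has an adjusted p under 0.05. The filled point is Fbp2 in PAE 3X at 0.86, and all other points are open.

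Gapdh, glyceraldehyde phosphate dehydrogenase and a common reference gene, had 8.45, 8.66, 8.44 and 8.29 on the 4 AFFB arrays, 8.45, 8.34, 8.41 and 8.46 on PAE 0.1X, 8.40, 8.71, 8.04 and 8.54 on PAE 1X, 8.23, 8.25, 8.19 and 8.41 on PAE 3X, 8.46, 8.41, 8.97 and 8.66 on sitagliptin, and 8.55, 8.48, 8.66 and 8.73 on water. The PAE 3X and the PAE 0.1X arrays all lay below the water arrays. The difference was -0.34 (SE 0.14, limma adjusted p = 0.894) at PAE 3X and -0.19 (SE 0.14, limma adjusted p = 1) at PAE 0.1X, and with arrays scaled to a common median the PAE 3X value was 0.02. Gapdh was 1 of the 2 members without overlap in PAE 3X, beside Fbp2, where 4.68% of kept probes did not overlap.

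Pgam1, phosphoglycerate mutase, had 5.98, 5.48, 5.75 and 5.95 on the 4 AFFB arrays, 5.51, 6.20, 5.88 and 6.05 on PAE 0.1X, 5.90, 5.33, 5.61 and 5.60 on PAE 1X, 5.58, 5.51, 5.44 and 5.74 on PAE 3X, 5.92, 5.57, 5.49 and 5.75 on sitagliptin, and 5.99, 6.04, 5.51 and 5.92 on water. Its groups overlapped throughout, and its trend over the doses was -0.12 per step (SE 0.05, limma adjusted p = 0.649), or -0.04 with arrays scaled to a common median. Pkm, pyruvate kinase of muscle and most other tissues, catalyses the last step of glycolysis. It had 8.93, 8.74, 8.37 and 8.50 on the 4 AFFB arrays, 8.79, 8.68, 8.46 and 8.53 on PAE 0.1X, 8.61, 8.01, 8.56 and 8.63 on PAE 1X, 8.46, 8.66, 8.54 and 8.48 on PAE 3X, 8.86, 8.79, 8.73 and 8.60 on sitagliptin, and 9.01, 8.54, 8.82 and 8.69 on water. The lowest array was PAE 1X replicate 2, which is an array apart. The Pkm difference in PAE 1X was -0.31 (SE 0.15, limma adjusted p = 0.753), -0.17 without the 3 arrays apart and 0.01 with arrays scaled to a common median.

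The other glycolysis members showed smaller or less regular differences. Means for Pfkl and Pfkm, the liver and muscle subunits of phosphofructokinase, were 6.92 and 6.46 in AFFB, 7.12 and 6.30 at PAE 0.1X, 6.91 and 6.63 at PAE 1X, 6.88 and 6.46 at PAE 3X, 7.13 and 6.49 in sitagliptin, and 7.06 and 6.62 in water. The platelet subunit Pfkp was detected on at most 2 arrays by any of its 3 probes and was not kept, and Hk1, hexokinase, was detected on none. Aldoa, aldolase A, averaged 6.55 ± 0.26 in AFFB, 6.51 ± 0.25 at PAE 0.1X, 6.49 ± 0.23 at PAE 1X, 6.58 ± 0.05 at PAE 3X, 6.87 ± 0.16 in sitagliptin and 6.72 ± 0.13 in water (SD, n = 4 each). It stood at -0.33 (SE 0.12, limma adjusted p = 0.911) in the berry groups relative to sitagliptin, a contrast chosen after the values were seen. Pgk1, phosphoglycerate kinase, differed from water by at most 0.09 in size in any group, but 2 arrays apart lowered its means. PAE 1X replicate 2 read 7.05, against 7.63 to 8.01 on the others of its group. AFFB replicate 2 read 7.36, against 7.82 to 7.98, and water read 7.60 to 7.91. With arrays scaled to a common median the Pgk1 difference was 0.19 at PAE 1X and 0.29 at PAE 3X. Tpi1, triose phosphate isomerase, differed from water by at most 0.22 by its brightest probe, in sitagliptin, where it was 0.14 without the 3 arrays apart. Aldoc, the brain aldolase, and Eno3, the muscle enolase, were detected on 9 and 14 arrays.

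Lactate dehydrogenase was represented by Ldha, the subunit that predominates in muscle. It had 8.29, 7.94, 8.17 and 7.88 on the 4 AFFB arrays, 7.99, 8.57, 8.31 and 7.88 on PAE 0.1X, 8.62, 7.46, 8.15 and 8.18 on PAE 1X, 8.01, 8.29, 8.46 and 8.14 on PAE 3X, 8.91, 8.23, 8.57 and 8.25 on sitagliptin, and 8.37, 8.51, 8.30 and 8.35 on water. The AFFB arrays all lay below the water arrays, and the difference was -0.31 (SE 0.20, limma adjusted p = 0.919). Ldha and Fbp2 were the 2 members without overlap in AFFB, where 3.6% of kept probes did not overlap. Ldhb, the heart subunit, was detected on 3 arrays, PAE 1X replicate 1, PAE 3X replicate 4 and water replicate 4, and was not kept. It had 4.45, 4.35, 4.46 and 4.43 on the 4 AFFB arrays, 4.48, 4.52, 4.27 and 4.35 on PAE 0.1X, 4.63, 4.52, 4.44 and 4.38 on PAE 1X, 4.56, 4.52, 4.44 and 4.71 on PAE 3X, 4.65, 4.49, 4.36 and 4.42 on sitagliptin, and 4.65, 4.41, 4.50 and 4.80 on water.

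In the citrate cycle no member passed, and directions were mixed. Of 11 genes, 5 had a higher mean and 6 a lower mean in AFFB, 4 and 7 at PAE 0.1X, 4 and 7 at PAE 1X, 5 and 6 at PAE 3X, and 8 and 3 in sitagliptin, with medians between -0.02 and 0.03. With arrays scaled to a common median these medians were 0.03 in AFFB, 0.01 at PAE 0.1X, 0.28 at PAE 1X, 0.33 at PAE 3X and 0.16 in sitagliptin. Under that scaling the median over all kept probes was itself 0.13 at PAE 1X, 0.16 at PAE 3X and 0.05 in sitagliptin.

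Cs, citrate synthase, which condenses acetyl-CoA with oxaloacetate, had 7.42, 6.73, 7.11 and 7.35 on the 4 AFFB arrays, 6.96, 7.30, 7.37 and 7.43 on PAE 0.1X, 7.03, 6.85, 7.34 and 7.14 on PAE 1X, 6.70, 7.34, 7.26 and 6.97 on PAE 3X, 7.07, 7.30, 7.32 and 7.54 on sitagliptin, and 7.31, 7.58, 7.42 and 7.32 on water. Water had the highest mean and overlapped every group. The difference was -0.34 (SE 0.16, limma adjusted p = 0.993) at PAE 3X and -0.32 (SE 0.16, limma adjusted p = 0.782) at PAE 1X, and with arrays scaled to a common median -0.02 and -0.06. Without the 5 arrays of high clock score the PAE 3X value of Cs was -0.60. Fh1, fumarase, had 7.86, 7.52, 7.68 and 7.56 on the 4 AFFB arrays, 7.81, 8.01, 7.85 and 7.91 on PAE 0.1X, 7.22, 6.69, 7.55 and 7.75 on PAE 1X, 7.43, 7.79, 7.89 and 7.21 on PAE 3X, 7.60, 8.10, 7.70 and 7.91 on sitagliptin, and 7.70, 7.77, 7.79 and 8.02 on water. In PAE 1X Fh1 stood at -0.52 (SE 0.18, limma adjusted p = 0.645), at -0.31 without the 3 arrays apart and at -0.25 with arrays scaled to a common median. Its other kept probe was detected on no PAE 1X array and on 2 water arrays.

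Among the isocitrate dehydrogenases, Idh3a, the catalytic subunit of the NAD-linked enzyme, had 5.89, 5.72, 5.87 and 5.53 on the 4 AFFB arrays, 5.91, 5.88, 5.90 and 5.52 on PAE 0.1X, 5.76, 5.81, 5.40 and 5.03 on PAE 1X, 5.66, 5.32, 5.03 and 5.59 on PAE 3X, 5.52, 6.17, 5.88 and 5.37 on sitagliptin, and 5.58, 5.32, 5.52 and 5.06 on water. Its mean was 0.38 (SE 0.19, limma adjusted p = 0.919) above water in AFFB, 0.43 (SE 0.19, limma adjusted p = 1) at PAE 0.1X, 0.13 at PAE 1X (0.03 without the 3 arrays apart), 0.03 at PAE 3X and 0.36 (SE 0.19, limma adjusted p = 1) in sitagliptin. The groups overlapped water in each case. Its partner subunit Idh3b differed from water by at most 0.07 in size in any group by its brightest probe. At PAE 1X the small difference rested on replicate 2, an array apart. That array read 9.05, against 8.28 to 8.54 on the other PAE 1X arrays and 8.53 to 8.61 on water. With arrays scaled to a common median the Idh3b difference was 0.32 at PAE 1X and 0.34 at PAE 3X.

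Idh2, the mitochondrial NADP-linked enzyme, was lowest in PAE 0.1X. It had 7.88, 8.08, 8.14 and 8.39 on the 4 AFFB arrays, 7.56, 7.66, 7.51 and 7.79 on PAE 0.1X, 7.70, 8.0, 7.97 and 8.46 on PAE 1X, 8.05, 7.81, 7.99 and 8.23 on PAE 3X, 8.23, 7.93, 8.14 and 8.37 on sitagliptin, and 7.97, 7.91, 7.93 and 8.16 on water. The PAE 0.1X arrays all lay below the water arrays and below the PAE 3X arrays. The difference from water was -0.36 (SE 0.15, limma adjusted p = 1), and PAE 3X stood at 0.39 (SE 0.15, limma adjusted p = 0.802) relative to PAE 0.1X. With arrays scaled to a common median the latter was 0.71 (limma adjusted p = 0.117), where the median over all kept probes itself was 0.16. Idh2 was 1 of 3 members without overlap at PAE 0.1X against water, with Fbp2 and Gapdh, where 2.99% of kept probes did not overlap, and 1 of 2 with G6pc at PAE 3X against PAE 0.1X, where 3.88% did not. In PAE 1X against water Fbp2 was the only such member, where 3.89% did not overlap, and sitagliptin against water and AFFB against PAE 1X had none, where 2.17% and 2.13% did not.

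Mdh1, the cytosolic malate dehydrogenase, had 4.50, 4.96, 5.08 and 4.42 in PAE 3X and 4.99, 5.55, 5.53 and 5.42 in water. The difference was -0.63 (SE 0.29, limma adjusted p = 0.965). Mdh1 was detected on 2 of 4 PAE 3X arrays and on all 4 water arrays, so the difference is against values partly at background. Its lowest arrays in PAE 3X were replicates 1 and 4, which were also the lowest of that group for Fh1, Pdha1, the brightest Pdhb probe and the dimmer Suclg1 probe. On the component that set 3 arrays apart, these 2 replicates scored 12.7 and 19.0, the highest of the remaining arrays. Mdh2, the mitochondrial enzyme, averaged 7.49 ± 0.22 in PAE 3X and 7.78 ± 0.15 in water (SD, n = 4 each). With arrays scaled to a common median the direction turned, and Mdh2 was 0.07 above water in PAE 3X. Ogdh and Dlst, which belong to the oxoglutarate dehydrogenase complex, were among the steadiest members by their brightest probe. Their within-group SD was 0.16 for Ogdh and 0.14 for Dlst, against a median of 0.245 over all kept probes. The second Dlst probe, nearly as bright with a mean of 7.35 against 7.45, was less steady, with SDs of 0.14 to 0.28 in the 6 groups. Sucla2 was detected on no array.

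**Figure D3:**
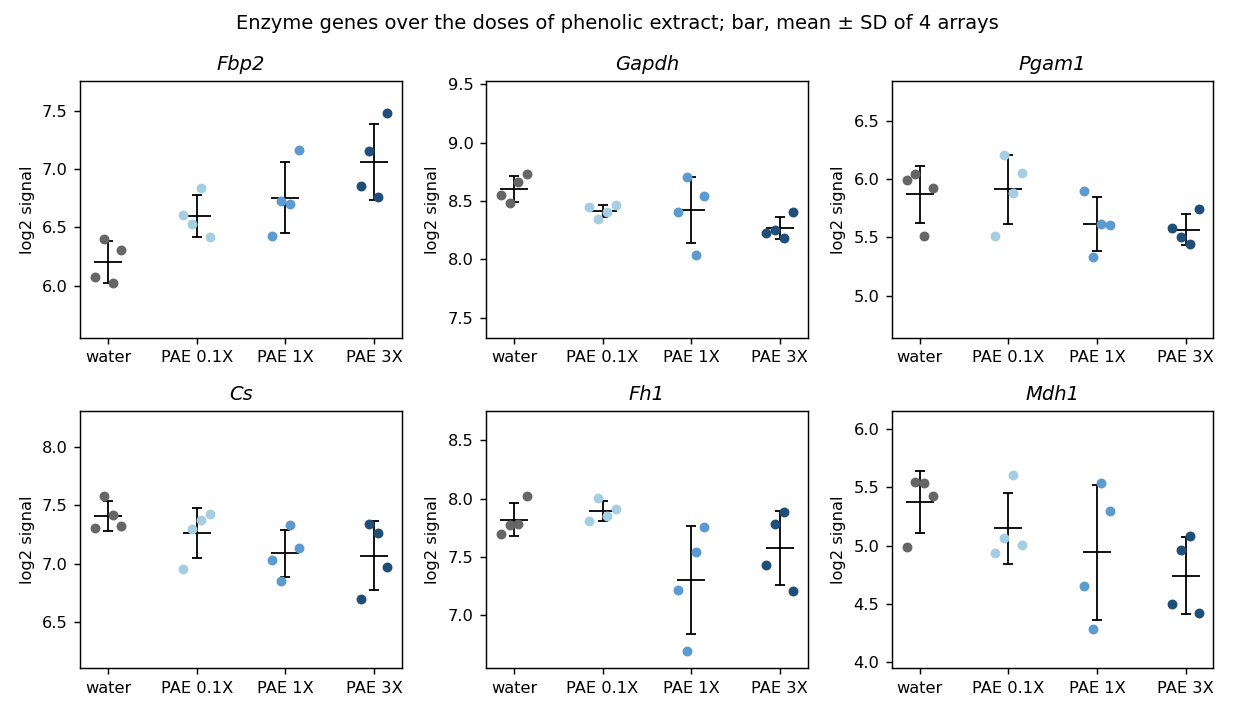
Log2 normalised signal of 6 enzyme genes over the dose series of water, PAE 0.1X, PAE 1X and PAE 3X; each point is an array, the long bar the mean and the whiskers the SD of 4 arrays, on axes of the same span. Fbp2 has means of 6.20, 6.60, 6.75 and 7.06 along the series, with overlapping arrays between neighbouring extract doses but not between water and PAE 0.1X. The arrays of the other 5 genes overlap between neighbouring doses, except Gapdh between water and PAE 0.1X and Fh1 between PAE 0.1X and PAE 1X.

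For the pyruvate dehydrogenase complex, which commits pyruvate to oxidation, no member passed. Of its 3 genes, 3 had a lower mean than water under PAE 3X and 2 in each of the other treated groups. Pdha1 encodes the alpha subunit and Pdhb the beta subunit of its decarboxylase, and Dlat its acetyltransferase. Pdha1 averaged 7.83 ± 0.36 in AFFB, 7.89 ± 0.08 at PAE 0.1X, 7.59 ± 0.39 at PAE 1X, 7.98 ± 0.42 at PAE 3X, 7.96 ± 0.35 in sitagliptin and 8.11 ± 0.21 in water (SD, n = 4 each). The Pdha1 difference at PAE 1X was -0.52 (SE 0.22, limma adjusted p = 0.718), -0.34 without the 3 arrays apart and -0.23 with arrays scaled to a common median. That scaling turned the sign of the Pdha1 difference at PAE 3X, which was 0.21 with it and -0.12 without it. Pdhb had the largest within-group SD of the members, 0.67, and its probes disagreed: in sitagliptin the brightest gave -0.55 and the next 0.40 relative to water, or -0.17 and 0.23 without the 3 arrays apart, of which sitagliptin replicate 3 is one. The third Pdhb probe, detected on 1 sitagliptin and 3 water arrays, gave -0.51 (SE 0.21, limma adjusted p = 1), a difference against values mostly at background. It had 4.65, 4.40, 5.04 and 5.34 on the 4 AFFB arrays, 4.93, 4.47, 5.09 and 4.36 on PAE 0.1X, 4.99, 4.48, 5.04 and 4.42 on PAE 1X, 4.93, 5.07, 4.77 and 4.75 on PAE 3X, 4.68, 4.39, 4.58 and 4.38 on sitagliptin, and 4.93, 5.41, 5.24 and 4.50 on water. Dlat was detected on 6 arrays.

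The 3 arrays apart differed from the other arrays of their groups most in a few member probes, and probes of the same gene split. The dimmer Suclg1 probe, for the alpha subunit of succinyl-CoA synthetase, had 5.54 on AFFB replicate 2, 4.43 on PAE 1X replicate 2 and 5.15 on sitagliptin replicate 3, against 6.79 to 8.68 on the other 21 arrays. The brighter Suclg1 probe had 10.33, 10.50 and 10.17 on them, within the range of 9.79 to 10.67 on the others. The dimmer Idh3g probe, for the regulatory subunit of the NAD-linked isocitrate dehydrogenase, had 5.26, 4.52 and 5.29 there against 5.52 to 7.14 elsewhere, while the brighter one had 10.20, 10.63 and 10.20 against 9.49 to 9.92.

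Relative to the other arrays of their groups, these 3 arrays deviated on average by -2.92 for the dimmer Suclg1 probe, -1.56 for the brightest Pdhb probe, -1.55 for the dimmer Idh3g probe, -0.88 for Mdh1 and -0.59 for Pdha1. They deviated upward by 0.70 for Eno3, 0.69 for the second Pdhb probe, 0.57 for the brighter Idh3g probe, 0.44 for the brightest Tpi1 probe and 0.37 for Gapdh. A mean deviation under -1 was found for 3 of 41 member probes and 2.7% of kept probes, and one over 1 for 0 member probes and 0.365% of kept probes. Fbp2 deviated by -0.07. None of the 3 arrays is a PAE 3X or water array, so leaving them out cannot change its PAE 3X difference of 0.86. The limma adjusted p, which also depends on the spread in the other groups, was 0.0376 without them.

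**Figure D4:**
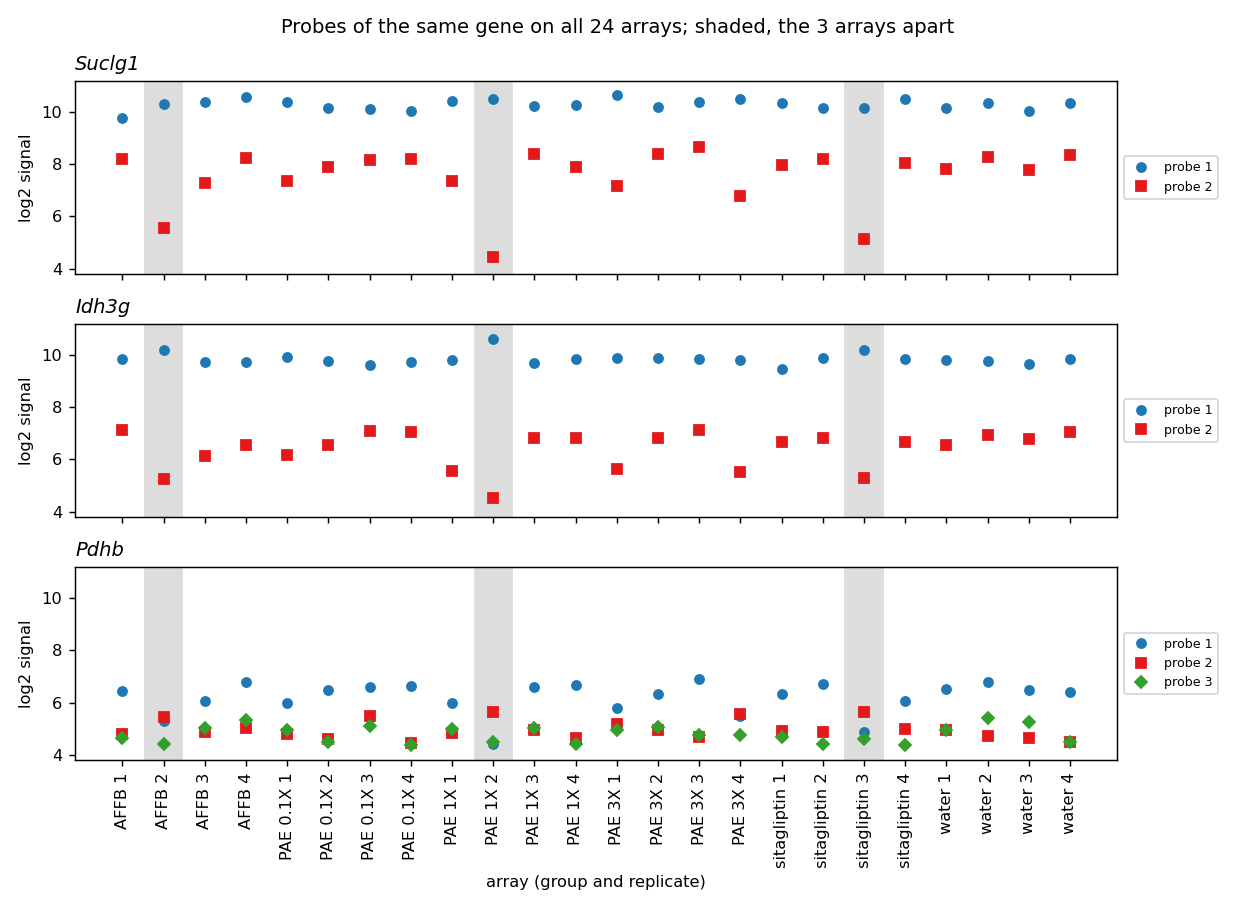
Log2 normalised signal of each kept probe of Suclg1, Idh3g and Pdhb on all 24 arrays, with the 3 arrays apart shaded. On the shaded arrays the dimmer Suclg1 probe reads 4.43 to 5.54 while the brighter reads 10.17 to 10.50.

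Other genes of the same pathways were counted beside the members. Of 51 such genes, 45 had a probe and 28 were kept, and none passed in any comparison. By their brightest probe, 14 had a higher and 14 a lower mean than water in AFFB, 13 and 15 at PAE 0.1X, 15 and 13 at PAE 1X, 15 and 13 at PAE 3X, and 16 and 12 in sitagliptin. Slc25a10, the mitochondrial dicarboxylate carrier, had 6.23, 6.56, 6.40 and 6.31 on the 4 AFFB arrays, 6.20, 6.57, 6.83 and 6.50 on PAE 0.1X, 6.75, 6.74, 6.74 and 6.83 on PAE 1X, 6.96, 6.89, 6.89 and 6.73 on PAE 3X, 6.43, 6.52, 6.50 and 6.59 on sitagliptin, and 6.31, 6.25, 6.40 and 6.78 on water. The PAE 3X arrays were nearly level and water replicate 4 lay among them. Its difference was 0.44 (SE 0.13, limma adjusted p = 0.574) at PAE 3X and 0.33 (SE 0.13, limma adjusted p = 0.692) at PAE 1X, and its trend was 0.15 per step (SE 0.04, limma adjusted p = 0.196).

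The remaining pathway genes with the smallest p stood as follows. Ldhd, a mitochondrial lactate dehydrogenase for the D form, was 0.59 (SE 0.20, limma adjusted p = 0.724) above water at PAE 3X by its brightest probe, and its second probe gave 0.43 (SE 0.18, limma adjusted p = 0.723) at PAE 1X. In PAE 0.1X, Me2, a mitochondrial malic enzyme, stood at -0.56 (SE 0.17, limma adjusted p = 1) and Slc2a1, the glucose transporter of many tissues, at -0.54 (SE 0.18, limma adjusted p = 1). Pdk3, a kinase that inactivates pyruvate dehydrogenase, was 0.33 (SE 0.15, limma adjusted p = 0.919) above water in AFFB and 0.45 (SE 0.15, limma adjusted p = 1) in sitagliptin. The dimmer probe of G6pc2, the islet form of glucose-6-phosphatase, was detected on no AFFB array and 2 water arrays, with measured means of 4.32 and 4.67 (limma adjusted p = 0.919). The brighter G6pc2 probe overlapped, with 4.74 to 6.55 on AFFB and 5.33 to 7.88 on water. The third probe of Sdhb, a succinate dehydrogenase subunit, was detected on 1 sitagliptin array and no water array, with measured means of 4.62 and 4.32 (limma adjusted p = 1). That rise lay at background and was not seen with the brighter Sdhb probes. The brightest had 8.03 to 8.43 on sitagliptin and 8.32 to 8.77 on water. The next had 7.69 to 8.40 on sitagliptin and 7.95 to 8.48 on water.

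RefSeq promoters were found for 37 of the 38 listed genes, 54 promoters in all, and were set beside all 32851 promoters of the same length. Counting both strands, CACGTG was in 13% of the module's promoters and 7.15% of all, and its shorter core ACGTG, which every CACGTG contains, in 42.6% and 19.6%. The GC box GGGCGG was in 57.4% and 35.7%, TGACGTCA, the cAMP response element, in 9.26% and 1.79%, the nuclear receptor motif AGGTCA in 25.9% and 16.3%, and the forkhead motif TGTTTAC in 1.85% and 3.65%. TATAAA, the core of the TATA box, was in 1.85% and 13.6%, and the D-box TTATGTAA in 0% and 0.938%. Some genes have several promoters whose windows overlap, Ogdh among them, so a single site can be counted more than once. By gene, TGACGTCA was found in 3 of the 37, CACGTG in 5, ACGTG in 16 and GGGCGG in 26. Shares by gene over all promoters were not computed. The median GC content was 59.2% in the module and 52.7% over all promoters. In Fbp2, whose sequence is given above, CACGTG began 42 bases before the start, and Fbp1 held GGGCGG 84 bases before its start and no CACGTG in that window.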

How the data were processed

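Pancreas RNA of 24 arrays was analysed in 6 groups of 4, as given by the sample labels. The authors deposited bead summary intensity values with a detection p-value per probe, and a table of log2 values for the same arrays; the submitters' processing notes name R 3.1.2 and limma 3.22.1. The deposited log2 values differed by at most 0.104 from those recomputed here, with a 99th percentile of 0.00194.

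The neqc function corrected the background and quantile-normalized the intensities (limma 3.58.1, R 4.3.3; offset 16, detection p-values in place of control probes). Of 45281 probes, the 15328 with detection p under 0.05 on at least 4 arrays were kept. Group means were fitted with lmFit and eBayes, and p-values were two-sided and Benjamini-Hochberg adjusted over all kept probes. The trend used equal steps over water and the 3 extract doses. The code was tested on simulated data. Tables and motif counts used Python 3.11.15 and pandas 2.3.3.

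Probes were named from the platform annotation and updated to current RefSeq symbols; the accession matched RefSeq for 56 of 65 member probes. A gene with several probes was described by its brightest. Values on every array were given for members that passed, for those with the 3 smallest p in a comparison with water or the trend, and for a fixed list (Gapdh, Pgam1, Fbp1, Fbp2, Pck1, Pcx, Ldha, Ldhb, Pkm, Cs, Idh3a). Members, marker lists and tests were chosen with earlier results of these data known. A marker list's value is the mean log2 signal of its kept genes. Chips and hybridisation batches are not given in the sources used here. The number of arrays limits the precision: the median SE of a difference from water was 0.17. Alternatives covered background correction, offset, scaling, the filter on dim probes, the fit, the replicate number as a block, clock and adipocyte covariates, the dose scale, the deposited values and leaving out arrays.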

Additional observations from a re-analysis of the deposited data

Results flagged for a closer look

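In each group of 4 arrays, an array was marked where its gap to the nearest of the others, divided by the range of the group, passed Dixon's critical value for that number of values. This marked 7 of 174 groups of the 29 members, and chance marks about 1 in 20.

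Fbp1 read 4.4443 on AFFB replicate 1, against 4.2844 to 4.3084 on the other AFFB arrays, with no AFFB array detected. Idh3a read 5.5198 on PAE 0.1X replicate 4, against 5.8791 to 5.9127 on the others of that group. Ogdh read 7.7718 on PAE 0.1X replicate 1, against 7.6374 to 7.6572. Pcx read 4.7306 on water replicate 3, against 5.0292 to 5.0767.

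The other 3 lay on arrays that stood apart over all probes. Idh3g read 10.631 on PAE 1X replicate 2, against 9.7103 to 9.8524 on the other PAE 1X arrays. Pkm read 8.0127 on the same array, against 8.5571 to 8.6336. Mdh1 read 4.4924 on sitagliptin replicate 3, against 5.363 to 5.4375 on the other sitagliptin arrays.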

How the results depend on the processing

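Fbp2 was the only member that passed under any setting, and its calls moved. In PAE 3X against water, 0 members passed without the filter on dim probes (adjusted p of Fbp2 0.106), with only the groups compared (0.164), with the adipocyte marker mean as a covariate (0.0659) and without the 5 arrays of high clock score, an alternative chosen after seeing the data (0.186). For the trend, 0 passed without the filter (0.0511), with only the groups compared (0.0786), with dose in mg per kg per day (0.0645) and without the 5 arrays (0.0847). Without the filter, 45281 probes were tested in place of 15328; the cause of the other losses was not tested. In the F test, 1 member passed with arrays scaled to a common median (0.0391). Leaving out 1 array in turn gave 0 to 1 members in PAE 3X against water, 0 to 1 for the trend, 0 to 1 in the F test and 0 in every other comparison. Over all alternatives the adjusted p of Fbp2 was 0.0158 to 0.186 in PAE 3X and 0.0052 to 0.0895 for the trend.

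Fbp2 stayed above water in PAE 3X under every setting, at 0.46 without background correction, 0.64 with an offset of 50 and 1.14 with arrays scaled to a common median. That scaling changed the sign of 84 of 290 member differences, none of which passed, and all other settings changed 0 to 31. Over all kept probes, 24 passed for the trend, against 85 with that scaling and 4 without the 5 arrays of high clock score. In PAE 3X against water, 7 passed, against 16 with that scaling, 24 with the clock covariate, 19 without the 3 arrays apart, 1 without the filter and 0 without the 5 arrays. With the replicate number as a block the adjusted p of Fbp2 was 0.0439 in PAE 3X and 0.0272 for the trend, and no member call changed. Same-numbered arrays correlated between -0.553 and 0.630 over 60 pairs (median 0.0327), and 7 of 24 arrays correlated best with their own number, so the numbers were not taken as pairing the samples. Low signal limits Fbp1, G6pc, Dlat, Aldoc and the 6 members with no kept probe to bounds or to background. Mdh1, detected on 18 arrays, lay partly at background.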
